A study of Homo sapiens with 27 samples.

Results

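Integrins and laminins are the receptor chains and matrix chains through which cells hold on to a basement membrane. The chains described here are the 37 genes, of 23230 gene symbols used, whose symbols name an integrin alpha chain (17 genes), an integrin beta chain (8), a laminin alpha chain (5), a laminin beta chain (4) or a laminin gamma chain (3). They were measured by RNA-seq in 27 libraries from 3 tumour cell lines at day 3 after a transient lipid transfection with constructs of MAML3, a coactivator of Notch signalling, or with empty vector. One line, SK-N-SH, comes from a neuroblastoma, and the others, QGP-1 and BON-1, come from neuroendocrine tumours of the pancreas. Cells received the pCMV6-AC vector carrying MAML3 without its exon 1 (dEx1), the same vector carrying the full-length MAML3 cDNA (FL), or the vector with no MAML3 sequence (vector). Both MAML3 constructs carried a C-terminal V5 tag, and each of the 9 groups had 3 biological replicates. Each line was kept in its own medium, so line and medium cannot be told apart. The share of cells that took up a construct was not given, and in such bulk RNA fewer cells of a type and less RNA per cell cannot be told apart.

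An integrin is a pair of one alpha and one beta chain in the plasma membrane, and the pair sets which ligand is bound. ITGA3 or ITGA6 with ITGB1, and ITGA6 with ITGB4, are laminin receptors, ITGA5 with ITGB1 is the classical fibronectin receptor, and ITGAV pairs with ITGB1, ITGB3, ITGB5, ITGB6 or ITGB8 to bind RGD ligands such as vitronectin and fibronectin. A laminin is a trimer of one alpha, one beta and one gamma chain. LAMA3 and LAMB3 are chains of the anchoring laminin of epithelial basement membranes, which is also found at the invasive edge of carcinomas, while LAMA5 or LAMA4 joins the widely made LAMB1 or LAMB2 and LAMC1 chains. Cell migration and invasion use these receptors and ligands.

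Stretches of DNA before transcript starts of LAMA3 and LAMB3 are shown first because both genes were lower in SK-N-SH cells with dEx1 than with FL, and those of LAMA5 and ITGAV because they were higher there. Each line gives the 250 bases before a transcript start on the gene's own strand, from RefSeq on GRCh38.p14, at the listed start farthest upstream and, for LAMB3, also at the most downstream of 3. Capitals mark matches to the AP-1 motif TGANTCA or to the NF-kB motif (GGGA, any 4 bases, CC) on either strand.
LAMA3: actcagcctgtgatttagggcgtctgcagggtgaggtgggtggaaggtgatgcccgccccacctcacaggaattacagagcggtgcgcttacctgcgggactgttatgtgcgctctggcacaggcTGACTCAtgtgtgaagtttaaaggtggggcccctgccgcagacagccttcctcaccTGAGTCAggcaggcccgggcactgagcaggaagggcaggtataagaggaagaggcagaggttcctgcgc
LAMB3, upstream start: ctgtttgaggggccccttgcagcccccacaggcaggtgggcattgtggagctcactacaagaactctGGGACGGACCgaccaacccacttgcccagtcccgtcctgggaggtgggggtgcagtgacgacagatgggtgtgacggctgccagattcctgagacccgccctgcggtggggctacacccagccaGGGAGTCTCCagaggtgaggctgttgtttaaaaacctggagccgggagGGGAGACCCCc
LAMB3, downstream start: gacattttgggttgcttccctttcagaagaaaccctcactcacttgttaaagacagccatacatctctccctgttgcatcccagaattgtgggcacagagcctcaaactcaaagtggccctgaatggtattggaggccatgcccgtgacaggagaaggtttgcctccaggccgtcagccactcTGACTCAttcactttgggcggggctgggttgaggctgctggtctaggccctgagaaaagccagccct
LAMA5: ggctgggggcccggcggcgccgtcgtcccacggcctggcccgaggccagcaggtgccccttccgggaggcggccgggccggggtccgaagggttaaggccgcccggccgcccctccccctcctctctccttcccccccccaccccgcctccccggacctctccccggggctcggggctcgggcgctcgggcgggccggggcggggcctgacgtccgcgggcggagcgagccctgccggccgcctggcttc
ITGAV: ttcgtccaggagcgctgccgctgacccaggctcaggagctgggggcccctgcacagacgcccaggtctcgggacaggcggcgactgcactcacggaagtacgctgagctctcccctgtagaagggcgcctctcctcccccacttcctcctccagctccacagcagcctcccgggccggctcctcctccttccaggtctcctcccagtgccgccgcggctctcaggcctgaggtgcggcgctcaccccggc
The LAMA3 stretch lies at chr18:23872770-23873019 on the plus strand, the LAMB3 stretches at chr1:209652426-209652675 and chr1:209651375-209651624 on the minus strand, the LAMA5 stretch at chr20:62367313-62367562 on the minus strand and the ITGAV stretch at chr2:186589806-186590055 on the plus strand. The LAMA3 start, the only one listed, is 183567 bases inside the RefSeq gene, and the downstream LAMB3 start is 1051 bases inside its gene, while the other starts printed are at the gene's own start. Stretches before 32 starts were matched for 25 of the 37 chains, and ITGB4 was not among them. TGANTCA was found before a start of 2 of the 25, LAMA3 (starting 125 and 69 bases before it) and LAMB3 (67 bases before the downstream start), and before 6.57% of all 35116 starts or a start of 8.06% of all genes listed. The motif reads the same on both strands, and it overlapped no NF-kB match. The NF-kB motif was found before a start of 8 of the 25 chains (ITGA11, ITGA5, ITGAV, ITGB1, ITGB5, LAMB1, LAMB3 and LAMC1), for ITGAV only at a second start inside the gene, and before 22.6% of all starts or a start of 25.8% of all genes. The RBPJ motif GTGGGAA, of the DNA-binding partner of Notch, was found before 0 of the 32 starts and before 5.43% of all starts. A match is a run of letters and not a measured binding site.

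Libraries held 73026244 to 120254457 estimated counts. MAML3 itself followed the labels: the SK-N-SH libraries held 4919 to 13893 counts per 1000000 (CPM) with dEx1 and 7858 to 15839 CPM with FL, against 16.9 to 30.3 CPM with vector. In QGP-1 the ranges were 2492 to 5413 CPM (dEx1) and 2231 to 8296 CPM (FL), against 38.5 to 93.7 CPM (vector), and in BON-1 they were 3184 to 4112 CPM (dEx1) and 2789 to 5369 CPM (FL), against 63.0 to 70.6 CPM (vector). Pancreatic neuroendocrine markers summed to 1558 to 2984 CPM in QGP-1 and 13245 to 35947 CPM in BON-1, and neuroblastoma markers to 81.5 to 214 CPM in SK-N-SH. Of the 6 pancreatic markers, 5 were over 1 CPM in every QGP-1 library and 5 in every BON-1 library. Of the 6 neuroblastoma markers, 3 were over 1 CPM in every SK-N-SH library. The 3 fibroblast markers summed to 329 to 693 CPM in SK-N-SH. Leukocyte markers reached at most 3.26 CPM and markers of stratified epithelium at most 0.57 CPM in any library. Several libraries stood apart from their groups: replicate 3 of the SK-N-SH vector group lay with the dEx1 libraries on the first principal component of its line (40.7% of the variance), replicate 1 of the BON-1 vector group lay alone on that of BON-1 (30.2%), and in QGP-1 that component (39.7%) set vector replicate 2 and replicate 3 of all 3 groups against the other 5 libraries.

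Of the 37 chains, 27 reached a mean of 2 CPM in at least 1 group. The other 10 (ITGA2B, ITGA8, ITGAD, ITGAL, ITGAM, ITGAX, ITGB7, LAMA1, LAMB4 and LAMC3) did not, and their highest value in any library was 3.89 CPM, for ITGA2B in replicate 1 of the BON-1 vector group. Most of these are chains of blood cell integrins, such as ITGAL, ITGAM and ITGAX, which pair with ITGB2.

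**Figure D1:**
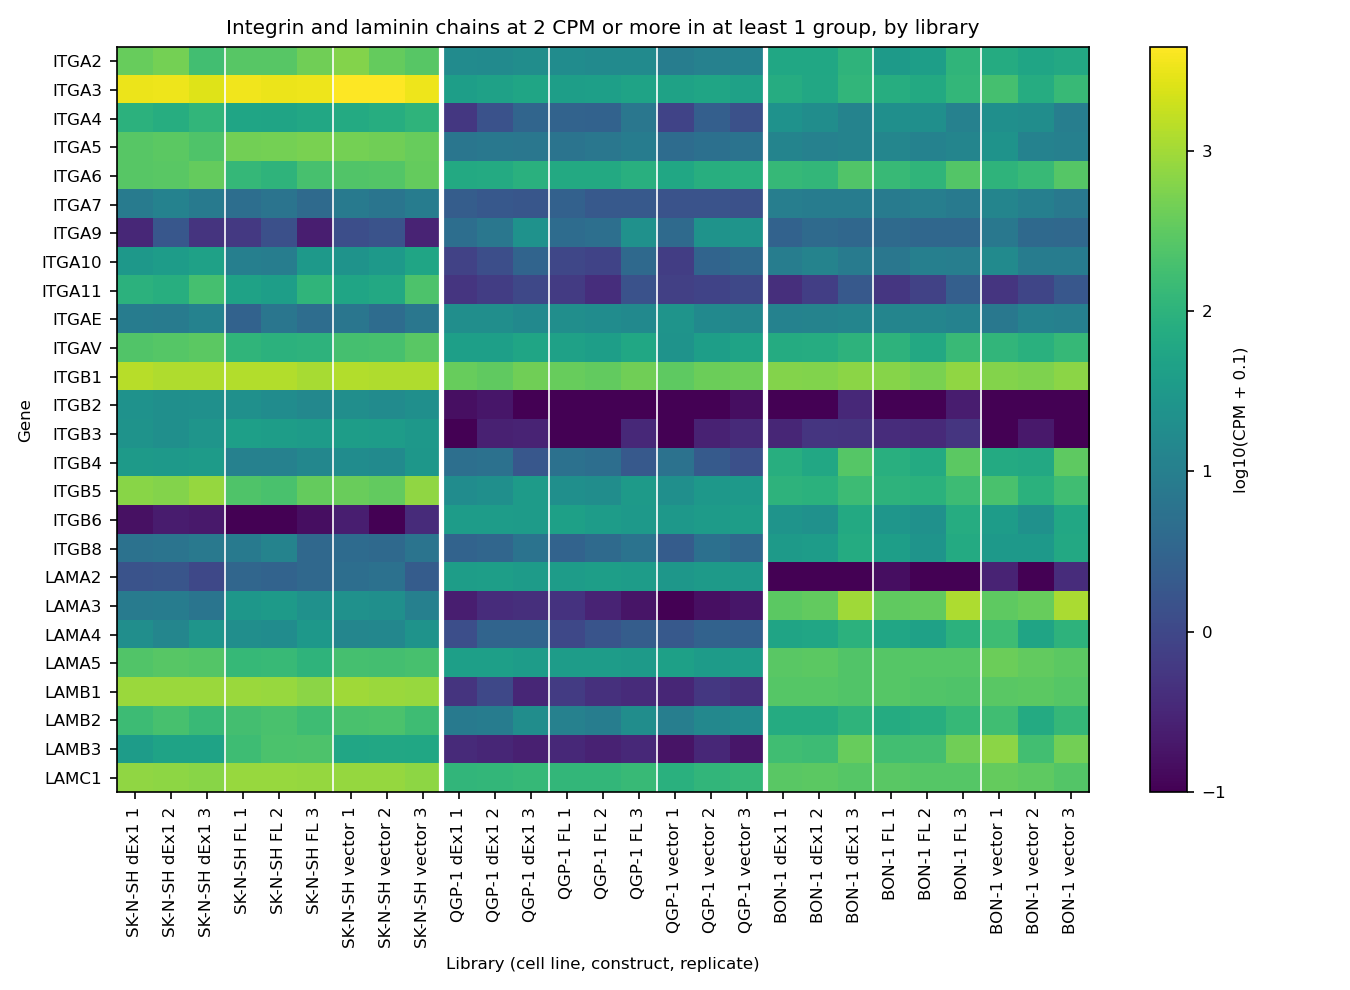
Levels of 26 chains that reached 2 CPM in at least 1 group, as log10(CPM + 0.1), with genes down the page and the 27 libraries across it (thin white lines part the groups, thick ones the cell lines). ITGA3 is brightest in SK-N-SH, LAMA3 and LAMB3 are bright in BON-1 and dark in QGP-1, and LAMA2 is bright in QGP-1 and dark in BON-1.

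Among the SK-N-SH groups, the dEx1 cells held less mRNA for LAMA3 and LAMB3 of the epithelial anchoring laminin than the FL cells did, and more for the laminin alpha chain LAMA5 and for the integrin chains ITGAV, ITGB5, ITGA6 and ITGB4. This comparison asks what the missing exon changes when both constructs are overexpressed. Of the 32 chains that passed the filter on low counts, 8 were higher and 6 lower in dEx1 cells than in FL cells (edgeR's quasi-likelihood test, Benjamini-Hochberg adjusted p under 0.05 over all genes), which is 43.8% of them, while 22.0% of all 14674 genes tested were called (10.5% higher and 11.5% lower). The median log2 fold change was 0.31 over the 32 chains and 0.00 over all genes. By family, 5 integrin alpha chains of 13 were higher and 1 lower, and 2 integrin beta chains of 8 were higher and 1 lower. Of 5 laminin alpha chains tested, 1 was higher and 2 were lower. The dEx1 and FL groups did not overlap for 17 of the 32 chains, the 14 called ones among them, and no share over all genes is given beside this. Here and below, a gap between groups largely follows from the call and is not separate evidence. Without FL replicate 1 the count was 8, beside 1857 of all genes. Without replicate 3 of every group it was 18, beside 4467 of all genes, against 3226 with every library.

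Marker genes of cell types differed between the same groups. The 3 fibroblast markers in the table summed to 502 to 686 CPM with dEx1 and 329 to 418 CPM with FL, against 331 to 693 CPM with vector, and of them PDGFRB (adjusted p = 0.0133) and DCN (adjusted p = 0.0361) were higher in dEx1 than in FL cells. The 6 neuroblastoma markers summed to 172 to 214 CPM with dEx1 and 81.5 to 168 CPM with FL, against 121 to 191 CPM with vector. Of the 4 platelet markers, PF4, PPBP and GP9 were at 0 in every SK-N-SH library, and GP1BA was at 0.77 to 1.23 CPM with dEx1 and 2.43 to 4.91 CPM with FL, against 3.41 to 3.85 CPM with vector. The 4 Schwann cell markers summed to 1.60 to 1.62 CPM with dEx1 and 2.69 to 3.48 CPM with FL, against 1.47 to 2.85 CPM with vector, so that dEx1 lay below FL. The part of these markers in the integrin and laminin values was not tested.

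LAMB3 is the beta chain of the anchoring laminin (chr1:209788215-209825770 on hg19, minus strand). It stood at 37.2, 49.4 and 49.7 CPM in the dEx1 libraries and at 156.6, 211 and 226.6 CPM in the FL libraries, against 57.2, 60.7 and 57.4 CPM with vector. Every FL library lay above every dEx1 and vector library. In dEx1 against FL cells the log2 fold change was -2.12 (SE 0.17, adjusted p = 0.000313), a level 4.34-fold lower.

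LAMA3, an alpha chain of the same laminin (chr18:21269417-21536186, plus strand), stood at 8.58, 8.96 and 6.33 CPM in dEx1 cells and 28.4, 33.3 and 22.0 CPM in FL cells, against 22.6, 20.8 and 10.4 CPM with vector. All dEx1 libraries lay below all others, while FL and vector overlapped. The log2 fold change in dEx1 against FL cells was -1.80 (SE 0.30, adjusted p = 0.00417).

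LAMA5, the alpha chain of widely expressed basement membrane laminins (chr20:60883011-60942368, minus strand), went the other way. It stood at 241, 277 and 256 CPM in dEx1 cells and 131, 132 and 103 CPM in FL cells, against 190, 179 and 196 CPM with vector. The vector group lay between the others with no overlap. The log2 fold change in dEx1 against FL cells was 1.09 (SE 0.11, adjusted p = 0.000861). Counting strand is not stated, and exons of LAMA5 share 244 bases with the gene ADRM1 on the other strand. LAMA2, the alpha chain known from muscle and nerve, was lower in dEx1 than in FL cells, at 1.30 ± 0.35 CPM with dEx1 and 3.30 ± 0.34 CPM with FL, against 4.03 ± 1.65 CPM with vector (SD, n = 3 each), with a log2 fold change in dEx1 against FL cells of -1.34 (SE 0.36, adjusted p = 0.028). This call was lost when any 1 dEx1 or FL library was left out and in the fit of all 27 libraries (adjusted p up to 0.0915).

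The laminin chains with the highest levels per kilobase of exon in the vector group, LAMC1 and LAMB1, were not called. LAMB1 averaged 879 ± 8.79 CPM with dEx1 and 819 ± 110 CPM with FL, against 898 ± 49.1 CPM with vector. LAMC1 averaged 719 ± 49.6 CPM with dEx1 and 845 ± 13.9 CPM with FL, against 782 ± 60.5 CPM with vector (adjusted p = 0.0995 in dEx1 against FL).

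**Figure D2:**
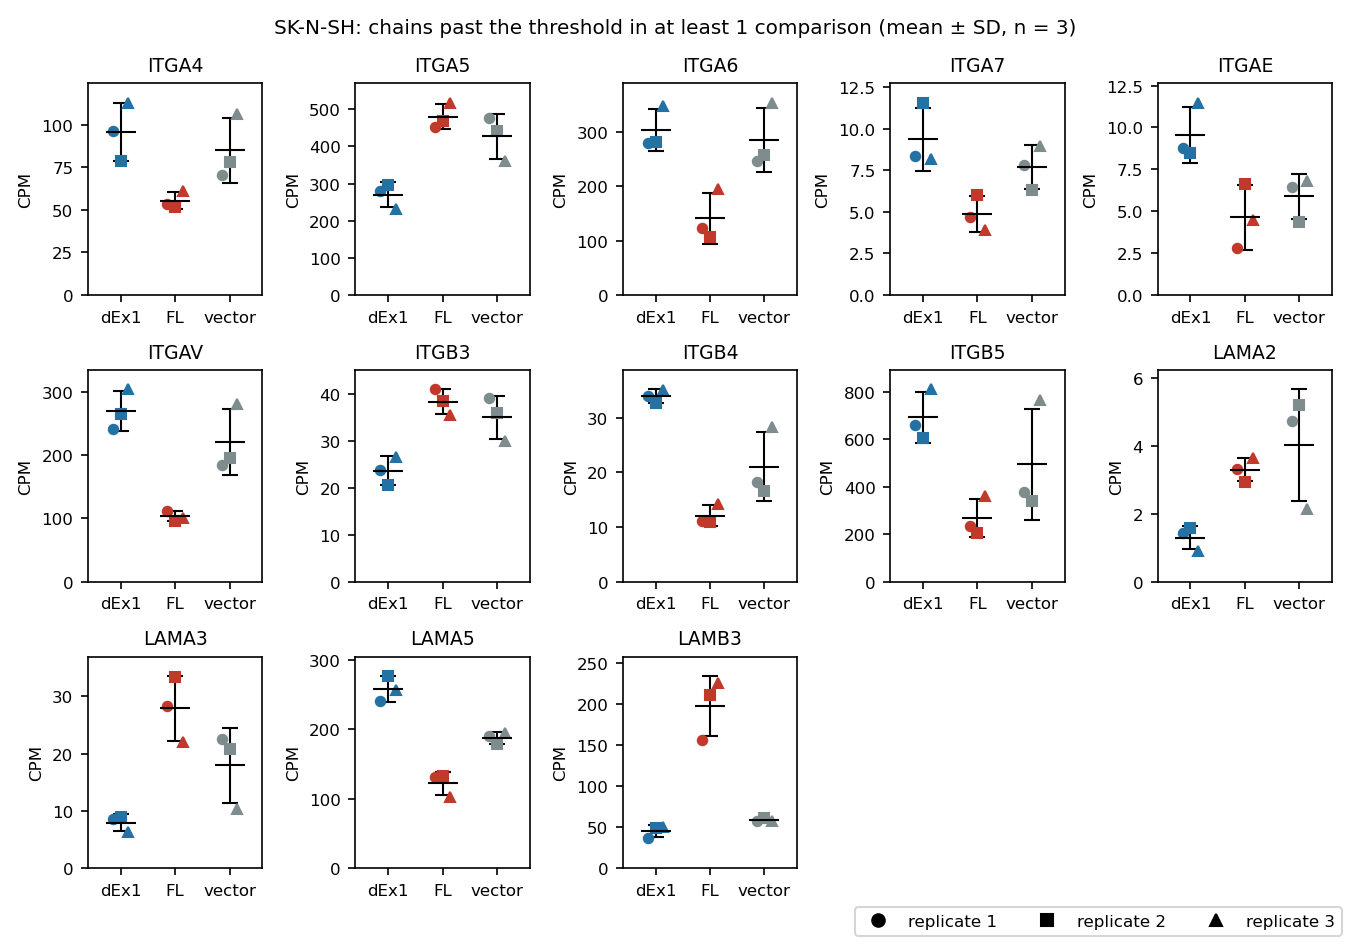
CPM of 13 chains called in at least 1 SK-N-SH comparison, by construct (dEx1, FL, vector), with 1 point per library, its shape giving the replicate number, and mean ± SD (n = 3). LAMB3 and LAMA3 are highest with FL, and LAMA5, ITGAV and ITGB4 are lowest with FL. Triangles (replicate 3) of the vector group stand apart for ITGB5, ITGAV and ITGB4.

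Among the integrin receptors, the alpha chain ITGAV (chr2:187454737-187545628, plus strand) was at 241, 264 and 304 CPM in dEx1 cells and at 111, 96.1 and 100.7 CPM in FL cells, against 184.6, 195.5 and 280.7 CPM with vector. FL lay below both other groups, and dEx1 overlapped vector. Its log2 fold change in dEx1 against FL cells was 1.40 (SE 0.17, adjusted p = 0.00145). ITGB5, a beta partner of ITGAV, was at 659, 605 and 810 CPM in dEx1 cells and 236, 207 and 360 CPM in FL cells, against 377, 340 and 764 CPM with vector. The vector group was wide, with replicate 3 inside the dEx1 range. In dEx1 against FL cells the log2 fold change of ITGB5 was 1.38 (SE 0.33, adjusted p = 0.0198), and the call was lost without FL replicate 1 or 2 or dEx1 replicate 1 or 3 (adjusted p up to 0.0743). ITGB3, another beta partner of ITGAV, moved against it, at 23.95, 20.6 and 26.7 CPM in dEx1 cells and 41.1, 38.5 and 35.7 CPM in FL cells, against 39.2, 36.1 and 29.9 CPM with vector. In dEx1 against FL cells its log2 fold change was -0.69 (SE 0.13, adjusted p = 0.00865).

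Both chains of the hemidesmosomal laminin receptor were higher in dEx1 than in FL cells. ITGB4, its beta chain (chr17:73717408-73753899, plus strand), was at 34.1, 32.6 and 35.2 CPM in dEx1 cells and 11.0, 11.0 and 14.3 CPM in FL cells, against 18.3, 16.6 and 28.3 CPM with vector. None of these 3 groups overlapped, in the order dEx1, vector, FL from the top. It was 2.82-fold higher in dEx1 than in FL cells (SE of the log2 fold change 0.21, adjusted p = 0.00228). ITGA6 was at 279, 282 and 347 CPM in dEx1 cells and 122, 106 and 194 CPM in FL cells, against 246, 257 and 353 CPM with vector, so that dEx1 and vector overlapped. It was 2.15-fold higher in dEx1 than in FL cells (SE of the log2 fold change 0.24, adjusted p = 0.0127, and 0.0539 without FL replicate 1).

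The fibronectin receptor chain ITGA5 was lower in dEx1 cells, at 279, 297 and 232 CPM, than in FL cells, at 453, 468 and 517 CPM, and vector stood at 477, 443 and 361 CPM. The dEx1 group lay below both others. Its log2 fold change in dEx1 against FL cells was -0.83 (SE 0.13, adjusted p = 0.00376). ITGA4, an alpha chain that binds fibronectin and VCAM1, averaged 95.9 ± 17.0 CPM with dEx1 and 55.3 ± 4.96 CPM with FL, against 84.9 ± 19.0 CPM with vector (dEx1 against FL, adjusted p = 0.0161, lost without FL replicate 1 or 2 or dEx1 replicate 3 and in the fit of all 27 libraries). Exons of ITGA4 share 2813 bases with CERKL on the other strand, so reads there cannot be told apart. ITGA7, a laminin receptor chain of muscle, averaged 9.36 ± 1.91 CPM with dEx1 and 4.87 ± 1.06 CPM with FL, against 7.69 ± 1.32 CPM with vector (dEx1 against FL, adjusted p = 0.0175, lost without FL replicate 1 or dEx1 replicate 2). ITGAE, known as the E-cadherin receptor chain of T cells, averaged 9.57 ± 1.66 CPM with dEx1 and 4.63 ± 1.94 CPM with FL, against 5.88 ± 1.33 CPM with vector (dEx1 against FL, adjusted p = 0.0447, lost without FL replicate 1 or 3, any dEx1 replicate or vector replicate 1, up to 0.173). Its exons share 427 bases with HASPIN on the other strand. ITGB1, the shared beta chain, and ITGA3, an alpha chain that binds laminin with it, were not called, at 1303 ± 80.9 and 3066 ± 348 CPM with dEx1 and 1214 ± 102 and 3371 ± 132 CPM with FL, against 1262 ± 18.1 and 4057 ± 618 CPM with vector.

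**Figure D3:**
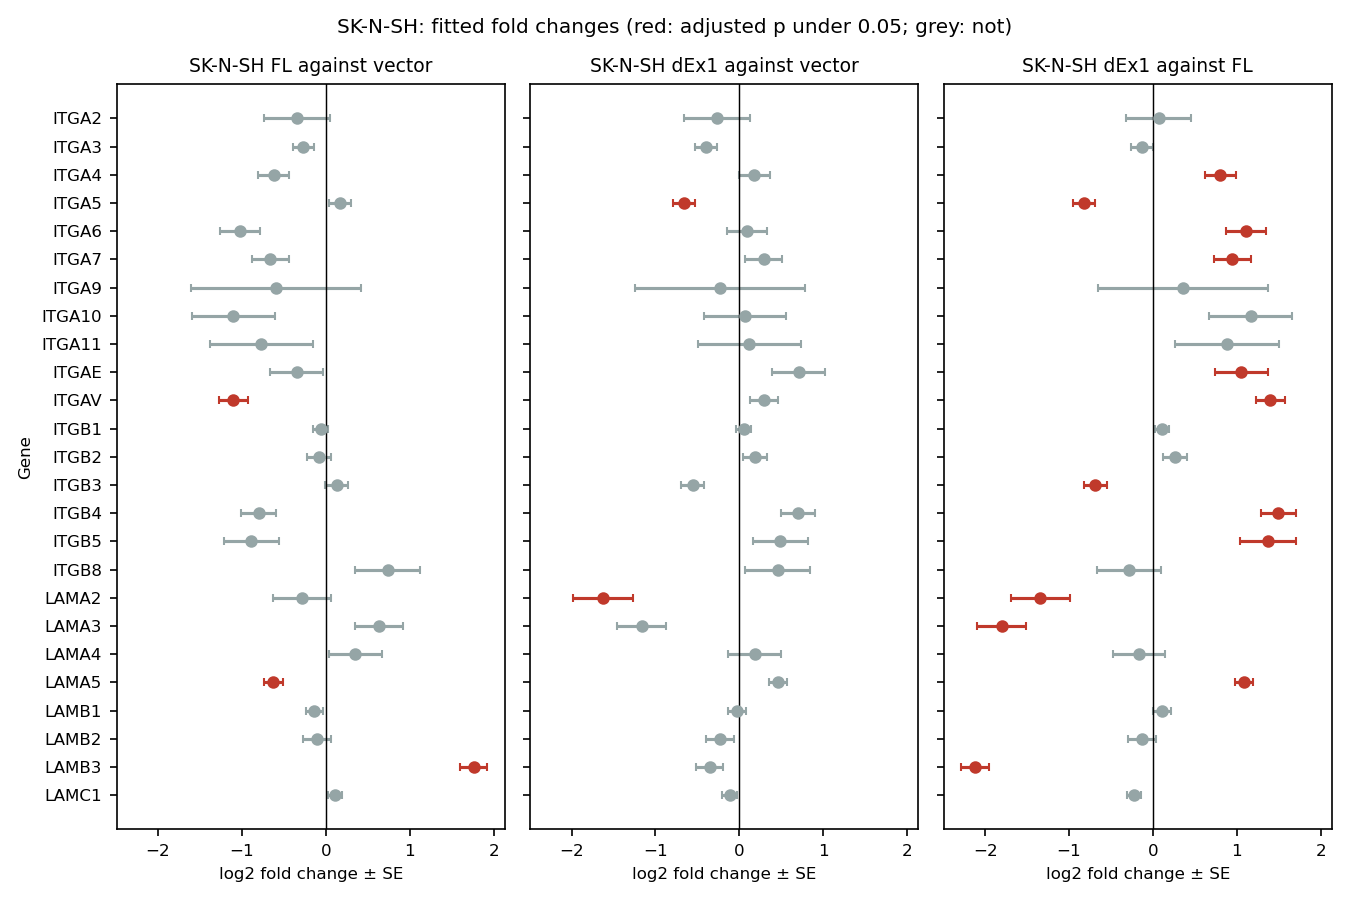
Fitted log2 fold changes ± SE of 25 chains with a mean of at least 0.5 CPM in every SK-N-SH group, for the 3 comparisons on 1 scale, with calls in red. The FL comparison has LAMB3 at 1.76 and ITGAV at -1.10, and the dEx1 against FL panel shows 13 calls, with LAMB3 and LAMA3 lowest and ITGB4 and ITGAV highest.

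Full-length MAML3 set against the empty vector showed fewer calls in SK-N-SH: LAMB3 was 3.39-fold higher in FL cells, and ITGAV and LAMA5 were lower. These 3 of 32 chains (9.38%) were called, beside 1.74% of all genes (0.934% higher and 0.804% lower). The log2 fold change in FL against vector cells was 1.76 for LAMB3 (SE 0.16, adjusted p = 0.00423), -1.10 for ITGAV (SE 0.17, adjusted p = 0.0246) and -0.63 for LAMA5 (SE 0.11, adjusted p = 0.0336). FL and vector did not overlap for any of them. LAMA3 had a positive value that missed the threshold (0.64, SE 0.29, adjusted p = 0.332). ITGA6 (-1.02, SE 0.24, adjusted p = 0.0744), ITGB4 (-0.80, SE 0.21, adjusted p = 0.0996) and ITGB5 (-0.89, SE 0.33, adjusted p = 0.235) missed it on the negative side. LAMB3 was called in all 20 alternatives tried, while leaving out FL replicate 1, FL replicate 2, dEx1 replicate 1 or vector replicate 2 left LAMB3 as the 1 call. The call for LAMA5 was also lost without dEx1 replicate 3 or vector replicates 1 or 3 (adjusted p up to 0.116), and 5 chains were called without FL replicate 3. Without replicate 3 of every group 10 chains were called, 2 higher and 8 lower, an alternative chosen after seeing the data. Over all genes 1020 were called in that alternative, against 255 with every library.

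Set against the empty vector in the same line, dEx1 cells held less ITGA5 and LAMA2, and no chain was called higher. These are 2 of 32 chains (6.25%), beside 4.47% of all genes (0.831% higher and 3.64% lower). The log2 fold change in dEx1 against vector cells was -0.66 for ITGA5 (SE 0.13, adjusted p = 0.0295) and -1.63 for LAMA2 (SE 0.36, adjusted p = 0.0409), and neither overlapped. Values just short of the threshold were 0.46 for LAMA5 (adjusted p = 0.052), -0.56 for ITGB3 (adjusted p = 0.0538) and -1.17 for LAMA3 (adjusted p = 0.0601). LAMB3 had a log2 fold change of -0.36 (SE 0.16, adjusted p = 0.227). The count depended on single libraries: it was 10 chains, 4 higher and 6 lower, without vector replicate 3, 4 without FL replicate 3, and 0 without any 1 of FL replicates 1 and 2, the dEx1 replicates or vector replicates 1 and 2. Calls over all genes moved as well, from 80 to 3267 over the alternatives, against 656 as reported. In the fit of all 27 libraries the only chain called was LAMA5, higher. These SK-N-SH comparisons share groups, so their values are set side by side and not read as separate evidence.

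Genes that work with these chains also differed between dEx1 and FL cells in SK-N-SH. In the integrin adhesion complex, the cytoplasmic proteins that link integrins to actin, 6 of 30 genes tested were higher and 2 lower in dEx1 than in FL cells, which is 26.7% and near the 22.0% of all genes. VCL, vinculin, was at 801, 758 and 1007 CPM in dEx1 cells and 310, 282 and 416 CPM in FL cells, against 390, 358 and 818 CPM with vector (log2 fold change in dEx1 against FL 1.35, SE 0.32, adjusted p = 0.0174, lost without FL replicate 1 or 2 or dEx1 replicate 3). LIMS2, a partner of the integrin-linked kinase, had a log2 fold change of 2.26 (SE 0.34, adjusted p = 0.00303, 0.0589 in the fit of all 27 libraries), and FERMT3, the kindlin of blood cells, of -1.45 (SE 0.36, adjusted p = 0.0213, lost without FL replicate 1 or 2 or dEx1 replicate 1). The count for this complex was 16 (14 higher and 2 lower) without replicate 3 of every group, where 4467 of all genes were called, against 3226 with every library.

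Other receptors and ligands of laminins and integrins went in both directions in dEx1 against FL cells, beside the same 22.0% of all genes called. Of 8 other laminin receptors and hemidesmosome genes, 3 were higher, namely DAG1, dystroglycan (0.92, SE 0.17, adjusted p = 0.00605), DST, which anchors keratin to hemidesmosomes (0.68, SE 0.12, adjusted p = 0.0061, 0.069 in the fit of all 27 libraries), and SDC1, a syndecan (0.95, SE 0.24, adjusted p = 0.0231, lost without FL replicate 1 or 2 or dEx1 replicate 3), and COL17A1, a hemidesmosomal collagen, was lower at 0.50 CPM with dEx1 and 2.32 CPM with FL, against 1.87 CPM with vector (means, adjusted p = 0.0495 in dEx1 against FL). Of 10 basement membrane partners, NID2, a nidogen that bridges laminin and collagen, was higher (0.96, SE 0.14, adjusted p = 0.00276), while NID1 (-0.69, SE 0.22, adjusted p = 0.0494) and COL4A1, a basement membrane collagen (-0.52, SE 0.14, adjusted p = 0.0323), were lower. Leaving out any 1 dEx1 library or vector replicate 1 ended the calls for NID1 and COL4A1, and leaving out any 1 FL library that for NID1. In the fit of all 27 libraries 0 of the 10 were called, with an adjusted p of 0.241 for NID2. Of 17 soluble and matrix ligands, 7 were higher and 3 lower. FBN1, fibrillin, was at 1665, 1671 and 1603 CPM in dEx1 cells and 706, 770 and 773 CPM in FL cells, against 1111, 1044 and 1502 CPM with vector. ICAM1, the ligand of the leukocyte integrins, was at 377, 436 and 241 CPM in dEx1 cells and 1413, 1732 and 1976 CPM in FL cells, against 1090, 1025 and 562 CPM with vector. The dEx1 and FL groups overlapped for neither, with log2 fold changes in dEx1 against FL of 1.14 for FBN1 (SE 0.14, adjusted p = 0.00138) and -2.27 for ICAM1 (SE 0.30, adjusted p = 0.0018).

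Against vector, 4 of 65 partner genes were called in SK-N-SH with FL, beside 1.74% of all genes. With dEx1 2 of 65 were called, beside 4.47% of all genes. With FL, the ligand SPP1, osteopontin, was higher (1.86, SE 0.27, adjusted p = 0.0229), and the ligands FBN1 (-0.70, SE 0.14, adjusted p = 0.0454) and LTBP1, which stores latent TGF-beta (-0.56, SE 0.11, adjusted p = 0.0497), and the nidogen NID2 (-0.71, SE 0.14, adjusted p = 0.0462) were lower. With dEx1, ICAM1 (-1.34, SE 0.29, adjusted p = 0.0381) and FN1, fibronectin (-0.44, SE 0.10, adjusted p = 0.0409), were lower. Each of these calls was lost without FL replicate 1, FL replicate 2 or vector replicate 2. Each was also lost with only the 6 libraries compared and in the fit of all 27 libraries. LTBP1 lost its call in 14 of 20 alternatives and FN1 in 11 of 20. In the pancreatic lines edgeR called 0 of 63 partner genes in QGP-1, with 4, 7 and 1 at an unadjusted p under 0.05 in FL against vector, dEx1 against vector and dEx1 against FL (beside 5.08%, 3.63% and 1.28% of all genes), and 0 of 60 in BON-1, with 5, 2 and 0 (beside 3.86%, 2.88% and 1.05%). DESeq2 called 1 of them for each construct against vector in QGP-1, beside 112 (FL) and 59 (dEx1) of all genes. In BON-1 FL against vector it called 1, beside 28 of all genes.

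In QGP-1, none of the 29 chains tested was called in any comparison, beside 0.0275% of all genes in FL against vector, 0.0207% in dEx1 against vector and 0.0138% in dEx1 against FL (0.00689% in each direction). At an unadjusted p under 0.05 there were 4, 3 and 0 chains in these comparisons, beside 5.08%, 3.63% and 1.28% of all genes. The lowest p belonged to ITGA2, the collagen receptor alpha chain, at 17.0, 16.9 and 18.5 CPM in dEx1 cells and 18.2, 16.8 and 16.8 CPM in FL cells, against 9.34, 11.0 and 11.4 CPM with vector. Every dEx1 and FL library lay above every vector library. Its log2 fold change was 0.71 in FL against vector cells (SE 0.12, adjusted p = 0.251) and 0.74 in dEx1 against vector cells (SE 0.12, adjusted p = 0.289). DESeq2 called ITGA2 in both comparisons, with adjusted p of 8.27e-07 (FL) and 3.16e-07 (dEx1). Its count was 1 chain in each, beside 112 (FL) and 59 (dEx1) of all genes, and 0 in dEx1 against FL, beside 19.

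The next lowest p in QGP-1 belonged to ITGA5, at 6.89 ± 0.34 CPM with dEx1 and 7.18 ± 1.44 CPM with FL, against 5.02 ± 0.66 CPM with vector, to ITGA7 in the FL comparison, at 2.15 ± 0.48 CPM with FL against 1.39 ± 0.09 CPM with vector, and to LAMA2 in the dEx1 comparison, at 38.0 ± 1.98 CPM with dEx1 against 31.6 ± 2.68 CPM with vector (SD, n = 3 each). Their adjusted p from edgeR were 0.894 or more. In dEx1 against FL cells the lowest p belonged to ITGB7, ITGA4 and LAMA4, each with an adjusted p of 1. The QGP-1 libraries also split along the first principal component: ITGA9, an alpha chain that binds tenascin and osteopontin, was at 22.2 to 25.4 CPM in vector replicate 2 and the replicate 3 libraries and at 3.93 to 6.98 CPM in the other 5. Of the 29 chains, 8 were higher and 2 lower in those 4 libraries with no overlap, ITGB4 and ITGAE being the lower ones. Of all 14522 genes tested, 20.4% were higher and 19.1% lower there in the same way, and the component that set the split was computed from these libraries. With a term for that split, ITGA2 was called in FL against vector cells (adjusted p = 0.0389).

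In BON-1, 0 of 30 chains were called in any comparison, beside 0.00671% of all genes in FL against vector, 0.0134% in dEx1 against vector and 0% in dEx1 against FL. At an unadjusted p under 0.05 there were 3, 2 and 0 chains, beside 3.86%, 2.88% and 1.05% of all genes. DESeq2 called 0 chains in each, beside 28, 35 and 8 of all genes. LAMA5 was at 286, 298 and 244 CPM in dEx1 cells and 269, 268 and 259 CPM in FL cells, against 391.8, 340 and 296 CPM with vector. FL lay below vector without overlap, and dEx1 overlapped it. The log2 fold change of LAMA5 was -0.37 in FL against vector cells (SE 0.13, adjusted p = 0.928) and -0.31 in dEx1 against vector cells (SE 0.13, adjusted p = 0.916). ITGA3 had a log2 fold change of -0.68 in dEx1 against vector cells (SE 0.36, adjusted p = 0.916). ITGB3 was near 0 in all BON-1 groups, at 0.35 ± 0.11 CPM with dEx1 and 0.32 ± 0.09 CPM with FL, against 0.04 ± 0.06 CPM with vector. ITGA2B averaged 0.73 ± 0.27 CPM with dEx1 and 0.31 ± 0.16 CPM with FL, against 1.63 ± 1.96 CPM with vector. In dEx1 against FL cells the lowest p belonged to chains that included ITGA2B and ITGAV, each with an adjusted p of 1.

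Replicate 3 of every BON-1 group stood far from the other replicates for the chains of the hemidesmosome. ITGB4 was at 266 to 308 CPM in the replicate 3 libraries and at 60.6 to 86.8 CPM in the other 6. LAMA3 was at 972 to 1173 CPM there and at 296 to 366 CPM in the other 6, ITGA6 at 238 to 268 CPM and at 107 to 134 CPM, and ITGB6, the epithelial partner of ITGAV, at 60.4 to 74.2 CPM and at 21.9 to 36.6 CPM. Replicate 3 was the highest of its group in all 3 groups for 11 of 30 chains and for 17.3% of all genes tested, and the lowest for 7 chains and 14.6% of genes. Vector replicate 1 lay above the other 8 libraries for 12 of the 30 chains and for 31.7% of all genes, and below them for 4 chains and 25.9% of genes. LAMB3 was at 674 CPM there and at 155 to 456 CPM in the other libraries of the line, and LAMA4 was at 157 CPM and at 45.5 to 99.6 CPM. Replicate 3 also differed in the other lines. It was highest in all 3 groups for 7 of 32 chains in SK-N-SH (18.3% of genes) and lowest for 4 (17.1%). In QGP-1 it was highest for 11 of 29 (16.2%) and lowest for 2 (11%). The highest in SK-N-SH included ITGA4, ITGA6, ITGB4 and ITGB5, and the lowest LAMA3, all called there in dEx1 against FL.

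**Figure D4:**
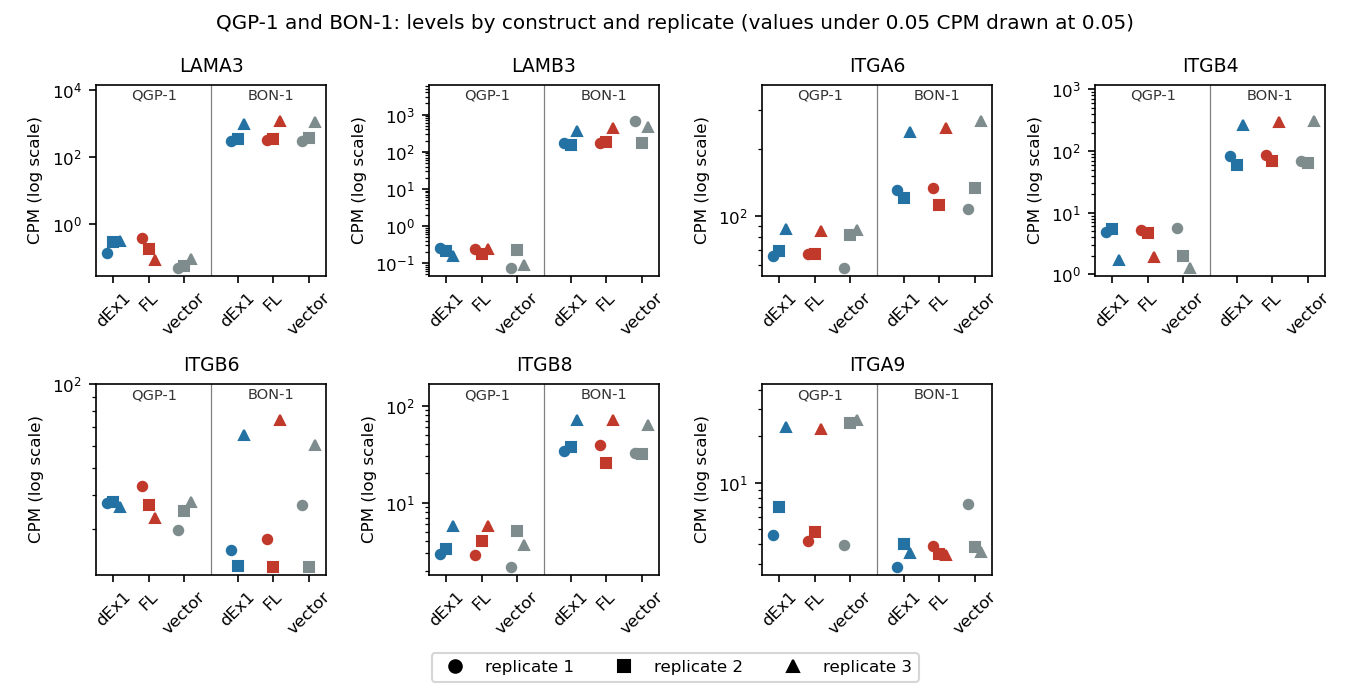
CPM on log axes of 7 chains in QGP-1 (left of each panel) and BON-1 (right), by construct, with 1 point per library and its shape giving the replicate number; values under 0.05 CPM are drawn at 0.05. Replicate 3 of every BON-1 group is high for LAMA3, ITGA6, ITGB4, ITGB6 and ITGB8, whichever construct was used, and ITGA9 splits the QGP-1 libraries into those at 22.2 to 25.4 CPM and those at 3.93 to 6.98 CPM.

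Whether a construct acted differently in SK-N-SH than in the pancreatic lines was tested in 1 model of all 27 libraries, as the effect in SK-N-SH less the mean effect of BON-1 and QGP-1. None of 34 chains passed, beside 0.373% of all 16883 genes for FL (0.237% higher and 0.136% lower) and 0.883% for dEx1 (0.101% higher and 0.782% lower), with 7 and 5 chains at an unadjusted p under 0.05 (beside 9.76% and 12.1% of all genes). For the FL effect, ITGAV had a log2 difference of -1.22 (SE 0.32, adjusted p = 0.121), LAMB3 of 1.73 (SE 0.56, adjusted p = 0.225) and ITGA7 of -0.86 (SE 0.28, adjusted p = 0.226). For the dEx1 effect, LAMA5 had a log2 difference of 0.58 (SE 0.14, adjusted p = 0.0568), with adjusted p from 0.00259 to 0.169 over 24 alternatives, and LAMA3 one of -2.25 (SE 0.82, adjusted p = 0.238), while ITGAL stayed under 0.5 CPM in every library. DESeq2 called ITGAV for FL and LAMA5 for dEx1, 1 chain each, beside 398 (FL) and 594 (dEx1) of all genes. In edgeR LAMA5 was called without SK-N-SH vector replicate 3, BON-1 vector replicate 3 or QGP-1 vector replicate 2, and ITGA5, lower, without BON-1 vector replicate 1. With replicate number as a block in each line, 3 chains passed for FL, ITGA6 (adjusted p = 0.00241), ITGAV (0.00929) and ITGB4 (0.038), all lower, beside 478 of all genes. For dEx1 LAMA5 (0.0166, higher) and LAMA3 (0.0116, lower) passed with the block, beside 912 of all genes. Replicate numbers were taken to pair libraries only where every same-number correlation of deviations from group means was over 0.1. That was met in BON-1, but not in SK-N-SH (lowest 0.0478) or between the QGP-1 vector and construct libraries. In SK-N-SH this does not show that pairing was absent, as 14 of 18 matches were best with the library's own number. Unless the block is named, the values reported come from fits without it, those of BON-1 included.

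The 3 lines carried different sets of chains in their vector groups, which show the lines without added MAML3. Of 34 chains tested between the vector groups, 15 were higher and 13 lower in SK-N-SH than in BON-1 (29.7% of all genes were higher and 30.9% lower, 60.6% in all), 23 higher and 6 lower in SK-N-SH than in QGP-1 (30.6% and 30.0% of all genes, 60.6% in all), and 2 higher and 23 lower in QGP-1 than in BON-1 (23.7% and 27.7%, 51.4% in all). Levels between genes are compared as CPM per kilobase of exon, with exon lengths from GENCODE. In SK-N-SH with vector, ITGA3 led with 414 CPM per kb (341 to 451 over the 3 libraries), followed by LAMC1 at 92.6, ITGB1 at 86.7, ITGB5 at 75.8 and ITGA5 at 57.8, and the ranges of LAMC1, ITGB1 and ITGB5 overlapped, as did those of ITGB5 and ITGA5. In QGP-1 with vector, ITGB1 led with 25.9 CPM per kb (21.7 to 28.4), and LAMC1 at 12.9 and ITGA6 at 11.3 had ranges that overlapped each other. In BON-1 with vector, LAMB3 led with 93.5 CPM per kb (37.1 to 145), and ITGB1 at 41.8 and LAMA3 at 41.4 had ranges that overlapped its own.

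Each line lacked chains that another held. In BON-1 cells with vector, LAMA3 averaged 599 ± 458 CPM and LAMB3 434 ± 252 CPM (SD, n = 3). SK-N-SH cells with vector held LAMA3 at 17.9 ± 6.62 CPM and LAMB3 at 58.4 ± 1.96 CPM. QGP-1 cells with vector held LAMA3 at 0.05 ± 0.05 CPM and LAMB3 at 0.13 ± 0.09 CPM. In SK-N-SH against BON-1 the log2 fold change was -5.06 for LAMA3 (SE 0.67, adjusted p = 1.14e-06, -4.21 without BON-1 vector replicate 3) and -2.89 for LAMB3 (SE 0.43, adjusted p = 5.91e-06).

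LAMA2 showed the reverse, with 31.6 ± 2.68 CPM in QGP-1 against 0.16 ± 0.15 CPM in BON-1, and 4.03 ± 1.65 CPM in SK-N-SH. LAMB1, present at 898 ± 49.1 CPM in SK-N-SH, was at 0.33 ± 0.12 CPM in QGP-1 against 284 ± 18.4 CPM in BON-1. LAMA4, an alpha chain of vessel walls and stroma, was 42.0-fold lower in QGP-1 than in BON-1.

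Among the integrins, ITGB2, ITGB3 and ITGA11, a collagen receptor chain of stromal cells, were at most 1.76 CPM in the vector libraries outside SK-N-SH. ITGB2 stood at 19.2 ± 1.60 CPM in SK-N-SH cells with vector, against at most 0.05 CPM in any QGP-1 vector library and 0 counts in all 3 BON-1 vector libraries, where 3 counts would be worth up to 0.0443 CPM. ITGB3 stood at 35.1 ± 4.70 CPM and ITGA11 at 112 ± 93.1 CPM in SK-N-SH, where replicate 3 held 219 CPM of ITGA11 and the other replicates 53.9 and 63.0 CPM. ITGB6 showed the opposite order, at 0.14 ± 0.14 CPM in SK-N-SH against a range of 29.8 to 37.7 CPM in QGP-1 and 39.7 ± 19.4 CPM in BON-1. ITGA3 was 84.4-fold higher in SK-N-SH than in QGP-1 and 30.6-fold higher than in BON-1, and ITGA5 was 85.0-fold and 27.7-fold higher. ITGB4 was 7.11-fold higher in SK-N-SH than in QGP-1, 6.99-fold lower in SK-N-SH than in BON-1 and 49.7-fold lower in QGP-1 than in BON-1, where the vector libraries spanned 63.7 to 308 CPM. Without BON-1 vector replicate 3, ITGB4 was 3.14-fold lower in SK-N-SH and 22.4-fold lower in QGP-1 than in BON-1, and without QGP-1 vector replicate 1 it was 88.5-fold lower in QGP-1. ITGB8, a partner of ITGAV that binds latent TGF-beta, was 9.18-fold lower in SK-N-SH and 11.7-fold lower in QGP-1 than in BON-1. ITGA9 was 19.0-fold lower in SK-N-SH than in QGP-1, whose libraries were split as above, and ITGAE was 3.07-fold lower in SK-N-SH than in QGP-1 and 1.88-fold higher in QGP-1 than in BON-1. With every library in the fit, the highest adjusted p behind these fold changes was 0.00727 (edgeR), for ITGAE in QGP-1 against BON-1. Without BON-1 vector replicate 3, that of ITGB4 in SK-N-SH against BON-1 was 0.0404 (edgeR). The call for ITGAE between QGP-1 and BON-1 was lost without QGP-1 vector replicate 1 (adjusted p = 0.0564).

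**Figure D5:**
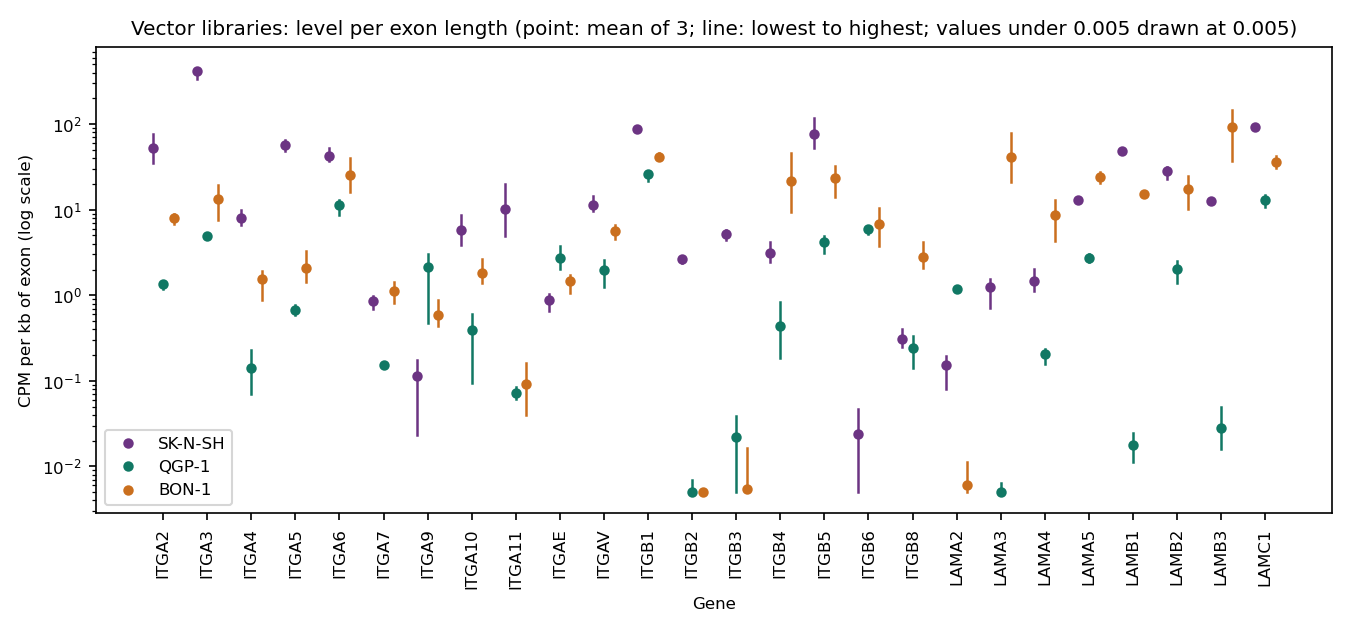
CPM per kilobase of exon (log axis) of 26 chains in the vector libraries of SK-N-SH, QGP-1 and BON-1, as the mean of 3 libraries with a line from the lowest to the highest; values under 0.005 are drawn at 0.005. ITGA3 in SK-N-SH is the highest point at 414, LAMB3 is the highest drawn in BON-1 at 93.5, and LAMA3, LAMB1 and LAMB3 are near the floor in QGP-1.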

How the data were processed

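RNA was made into libraries with an mRNA kit and sequenced, per the labels' protocols. Per the submitters' processing notes, Trimmomatic, HISAT2, StringTie and the hg19 genome were used, while versions, gene annotation, strand and the step to counts are not given in the sources used here. The table deposited by the authors holds whole-number estimated counts, a column for each library. What 1 sequenced fragment is worth in them is not known, so counts divided by 5 were an alternative and floors cover counting error only. Of 23234 rows, 4 repeated a symbol with identical values.

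The members and gene lists were chosen with earlier results of these data known. Each line's 9 libraries were fitted with edgeR 4.0.16 (R 4.3.3): genes filtered with filterByExpr, TMM scaling, quasi-likelihood F test, Benjamini-Hochberg adjustment over all genes and a threshold of 0.05. The counts were whole, so rounding changed nothing. Contrasts between lines used 1 fit of all 27 libraries, and the fits for FL were tested on simulated data first. SE is the fold change over the root of F. CPM is scaled with TMM over all libraries, a mean under 0.5 CPM in a group gets no fold change, and length is the union of GENCODE v44lift37 exons, which may differ from the authors' annotation. Named were all called chains, else the 3 with the smallest p, up to 6 per direction between lines at 2 CPM or more, and up to 3 called genes of each partner list. Other chains named, and the libraries that stand apart, were chosen after their values were seen.

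Alternatives were no filter, a mean of 2 CPM, DESeq2 1.42.0 and its size factors, other sets of libraries in the fit, a replicate block, a term for libraries that stand apart, a robust spread and leaving out libraries. Replicate numbers were taken to pair the samples where every same-number correlation of deviations from group means was over 0.1. This held in BON-1 (0.113 to 0.497) and, in QGP-1, between dEx1 and FL (0.223 to 0.568), and not elsewhere. The block was an alternative in every line, and the reported fits, those of BON-1 included, did not use it. Motifs were searched with Python 3.11.15 and figures drawn with matplotlib 3.10.9. ITGA1 was not analysed here, and 1 chain that enters the counts is not reported here.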

Additional observations from a re-analysis of the deposited data

How the results depend on the processing

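Among 1512 values of the named genes under the alternatives, 1347 kept direction and side of the threshold, 151 lost the call, 13 gained it and 1 reversed, ITGAV in BON-1 dEx1 against FL without FL replicate 3, where leaving out 1 library gave log2 fold changes of -0.52 to 0.031. In SK-N-SH FL against vector the count of 3 called chains was 8 with DESeq2, 1 with only the 6 libraries compared, 10 with a term for libraries that stand apart, 10 without replicate 3 of every group and 1 to 5 with 1 library left out. In SK-N-SH dEx1 against vector the count of 2 was 4 with a minimum mean of 2 CPM or counts divided by 5, 8 with DESeq2, 0 with only the 6 libraries compared, 9 with the term, 1 with all 27 libraries in one fit, 12 without replicate 3 of every group and 0 to 10 with 1 library left out. The 1 call in the fit of all 27 libraries was LAMA5, higher (log2 fold change 0.46, adjusted p = 0.0326 from edgeR). Neither ITGA5 nor LAMA2 was called in that fit. In dEx1 against FL the count of 14 was 8 to 14 with 1 library left out, 8 without FL replicate 1. LAMB3, LAMA3, LAMA5, ITGAV and ITGA5 were called there in all 20 alternatives, and ITGB4, ITGB3, ITGA4 and LAMA2 were lost in the fit of all 27 libraries (adjusted p = 0.171, 0.658, 0.33 and 0.0915). In QGP-1 the count of 0 was 1 with DESeq2 for either construct and 1 with the term for FL. The differences in effect between lines gave 1 chain for FL with DESeq2, and for dEx1 1 chain with DESeq2, with its size factors in edgeR or with a mean of 2 CPM, and 0 to 1 with 1 library left out. Between vector groups counts were 25 to 27 (SK-N-SH and BON-1), 28 to 30 (SK-N-SH and QGP-1) and 23 to 26 (QGP-1 and BON-1) with 1 library left out. Over all genes, the alternatives gave 21 to 1168 calls in SK-N-SH FL against vector (255 as reported), 80 to 3267 in dEx1 against vector (656), 1857 to 5138 in dEx1 against FL (3226), 0 to 35 in the BON-1 comparisons (0 to 2) and 0 to 112 in the QGP-1 ones (2 to 4), and for the differences in effect 39 to 478 for FL (63) and 64 to 912 for dEx1 (149). The cause was not tested.

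With replicate number as a block, 8 chains were called in SK-N-SH FL against vector and 8 in dEx1 against vector. Over all genes the block gave 778 and 2212 calls in these comparisons, against 255 and 656 without it. In the differences in effect the block gave 3 chains for FL (ITGA6, ITGAV and ITGB4, all lower) and 2 for dEx1 (LAMA5 higher, LAMA3 lower). In SK-N-SH the lowest same-number correlations were 0.0478, 0.0874 and 0.0971, and 14 of 18 matches of a library with another group were best with its own number, a hint from the data only. In QGP-1 replicate 2 gave -0.141 and -0.168 against vector. The block changed no call of these chains in BON-1 or QGP-1.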
